A study of Mus musculus with 6 samples.

Results

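Müller glia span the whole thickness of the retina and keep the fluid around its neurons stable. They carry potassium and water away from active synapses, take up glutamate and turn it into glutamine, buffer acid and help to recycle visual pigment. 9 genes of this work were examined among the 31053 genes of the deposited matrices, chosen by symbol: Aqp4, Kcnj10, Kcnj2, Glul, Slc1a3, Slc1a2, Rlbp1, Dkk3 and Car14. Each symbol matched a single gene.

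Single-cell RNA was measured at P17 in mouse retinas with oxygen-induced retinopathy (OIR) and in untreated control retinas (Ctrl). The OIR pups had spent P7 to P12 in 75% oxygen and the following 5 days in room air, a regimen that first removes and then misdirects retinal vessels, whereas Ctrl pups stayed in room air. Each group had 3 samples, and each sample pooled the retinas of 2 mice, so that p-values measure the spread between pools. The strain and genotype of the sequenced mice are not given in the sources used here, and the descriptions call the mice adult although the age given is P17. The labels name the tissue retinal endothelial cells, but no sort is described and rods made up 65.7% of the cells kept.

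The 6 samples held between 15788524 and 42606878 unique molecular identifiers (UMIs, counted RNA molecules), and 38569 of 47631 barcodes were kept as cells. Both replicate 1 samples held fewer rods than the others, 2851 (OIR) and 2264 (Ctrl) against 3982 to 6089. Cells of both also had higher median UMI counts, 3958 (OIR) and 4850 (Ctrl) against 1449.5 to 2354. Their median mitochondrial share was higher too, 5.86% (OIR) and 8.08% (Ctrl) against 2.24% to 3.31%. Xist RNA stood at 1798 and 1998 CPM (UMIs of a gene per 1000000 UMIs counted) in Ctrl replicates 2 and 3 and at no more than 0.493 in the other 4 samples. RNA of the Y-linked genes Ddx3y, Eif2s3y, Kdm5d and Uty summed to 213 to 262 CPM in those 4 samples. In Ctrl replicates 2 and 3 it summed to 0 and 0.0682 CPM. A term for Xist RNA thus sets Ctrl replicates 2 and 3 apart, and leaves Ctrl replicate 1 as the only control compared with OIR. Sex-linked RNA is partly confounded with group. In fits without Ctrl replicate 1, or with replicates 2 and 3 alone, the 2 cannot be told apart. Any pair of libraries shared 9 to 34 barcodes, at most 0.372% of the smaller library.

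The cells were grouped without using the 9 genes, and groups were named from marker lists that leave them out. The 3905 Müller-like cells (10.1% of all, between 285 and 1028 a sample) formed 2 clusters. A cluster with many UMIs per cell (2202 cells) expressed 11 of 11 Müller markers. A cluster with few (1703 cells, median 1774 UMIs) expressed 10 of 11. The same list gave both clusters their name, so these counts are no separate check of it. The low-UMI cluster supplied 35.4%, 59.7% and 60.7% of the Müller-like cells in OIR replicates 1 to 3 and 33.0%, 44.2% and 37.2% in Ctrl. Levels below are CPM of the summed UMIs of a cell type in a sample. They are not scaled by gene length. Levels of a gene are compared with those of the same gene, except where Aqp4 UMIs are counted beside Glul UMIs. A difference was called at an adjusted p under 0.05 in edgeR's quasi-likelihood test with a log2 fold change of 0.25 or more either way.

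In Müller-like cells the water channel Aqp4 and the potassium channel Kcnj10 were lower in OIR, the only 2 of the 8 members tested that were called. No member was called higher by edgeR or by DESeq2, and 5 of the 8 had an unadjusted p under 0.05, Slc1a3 (0.0482) being the one of these with a higher mean in OIR. Over all 11628 genes tested, 1.16% were called lower and 1.59% higher, and 1827 had an unadjusted p under 0.05. The median log2 fold change was -0.39 over the 8 members and -0.01 over all genes. The CPM of the 2 groups did not overlap for 5 members, 4 lower (Aqp4, Kcnj10, Glul and Slc1a2) and 1 higher (Slc1a3), against 6.91% of all genes without overlap and lower and 13.9% higher.

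Aqp4 (chr18:15389496-15410982, minus strand, GRCm38) encodes aquaporin-4, the main water channel of Müller cells, placed at their endfeet beside vessels and the vitreous. Its level was 416, 371 and 277 CPM in OIR replicates 1 to 3 and 900.4, 677 and 675 CPM in Ctrl. Every OIR sample was below every Ctrl sample, and OIR replicate 3 was lowest. The mean was 355 ± 70.9 CPM in OIR and 751 ± 130 CPM in Ctrl (SD, n = 3), and the gene fell by 1.14 on the log2 scale (SE 0.19, adjusted p = 0.0157). The call was lost without OIR replicate 2 (log2 fold change -1.14, adjusted p = 0.0514), without OIR replicate 3 (-0.97, adjusted p = 0.0640) and with no upper limit on detected genes (-1.09, adjusted p = 0.0687).

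Kcnj10 (chr1:172341210-172374085, plus strand), the inward rectifier potassium channel that sets the membrane potential of Müller cells and lies beside aquaporin-4, followed. It stood at 110, 102 and 88.3 CPM in OIR and at 161, 172 and 148 CPM in Ctrl, again with no overlap. The fall was smaller, -0.74 on the log2 scale (SE 0.14, adjusted p = 0.0236). Without OIR replicate 2, OIR replicate 3, Ctrl replicate 2 and Ctrl replicate 3 the adjusted p was 0.0735, 0.116, 0.106 and 0.0612. With no upper limit on detected genes it was 0.0920. The call was also lost with a term for Xist RNA, where the effect compares OIR with Ctrl replicate 1 alone. In the low-UMI cluster alone the log2 fold change was -0.26 (adjusted p = 0.754), and in the high-UMI cluster alone it was -0.70 (adjusted p = 0.0323).

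Kcnj2 (chr11:111066164-111076821, plus strand), another inward rectifier, had no UMI among the 24802122 of the Müller-like sums, a count that allows up to 0.121 CPM. Its 77 UMIs lay elsewhere, with 28 in endothelial-like, 25 in cone bipolar-like and 12 in microglia-like cells.

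**Figure D1:**
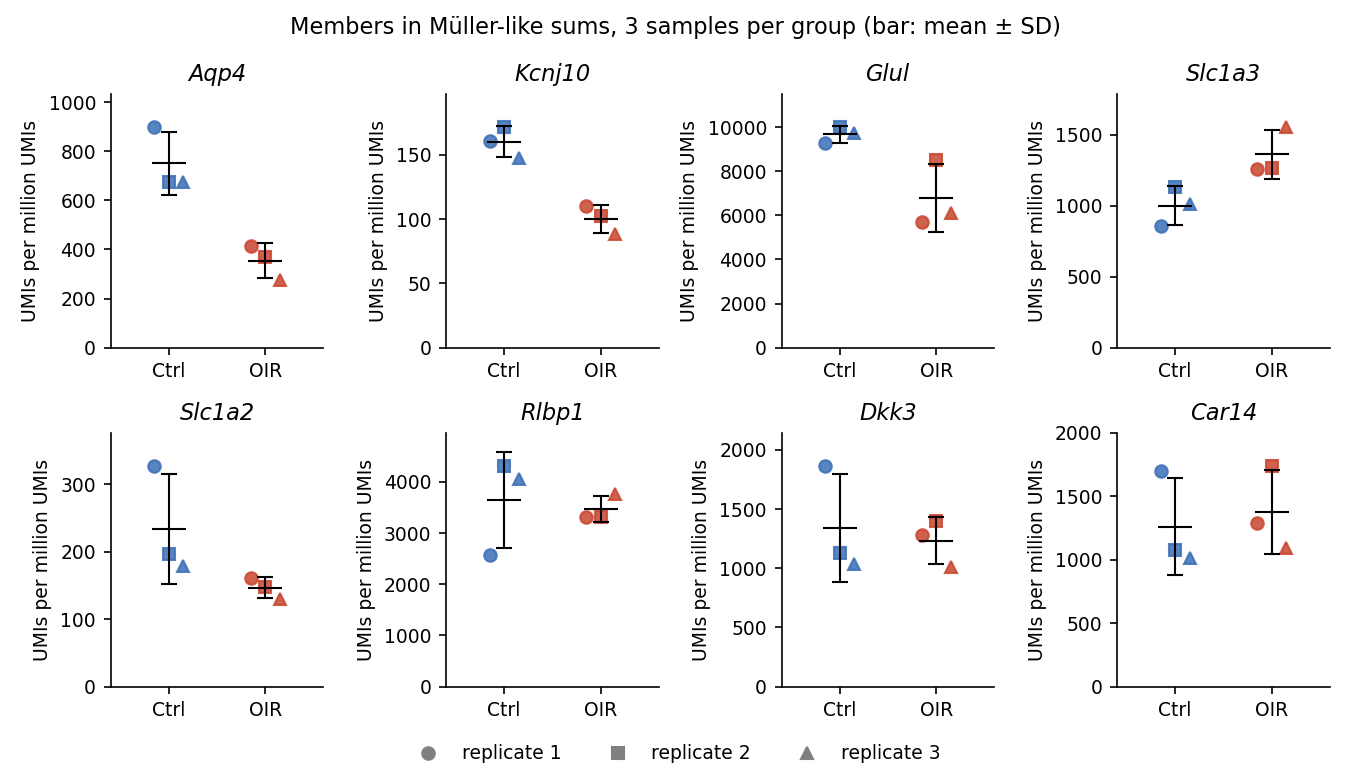
CPM (y axis) of the 8 members with UMIs in Müller-like sums, for 3 Ctrl and 3 OIR samples (points, shaped by replicate) with mean and SD (bars). Aqp4, Kcnj10, Glul and Slc1a2 show OIR points below all Ctrl points, Slc1a3 shows them above, and Rlbp1, Dkk3 and Car14 overlap; only Aqp4 and Kcnj10 passed the test.

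The genes of glutamate clearance did not pass the test and differed in direction. Slc1a3 (chr15:8634124-8710764, minus strand) encodes the main glutamate uptake carrier of Müller glia. It was measured at 1261, 1267 and 1558 CPM in OIR and at 857, 1135 and 1013 CPM in Ctrl, with a log2 fold change of 0.37 (SE 0.17, adjusted p = 0.312). All 3 OIR samples were above all 3 Ctrl samples. The gene shares its strand with Gm37310, and reads of the overlap cannot be assigned.

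Glul (chr1:153899944-153909723, plus strand) encodes glutamine synthetase, which joins ammonia to the glutamate taken up. Its level was 5719, 8531 and 6103 CPM in OIR against 9267, 10025 and 9727 CPM in Ctrl. OIR replicate 2 lay closest to the Ctrl range, without reaching it. The log2 fold change was -0.59 (SE 0.22, adjusted p = 0.220).

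Slc1a2 (chr2:102658659-102790784, plus strand) encodes a second glutamate carrier, known in the retina mainly from cones and bipolar cells. In Müller-like sums it stood at 161, 148 and 130 CPM in OIR and at 327, 196 and 178 CPM in Ctrl. The groups did not overlap, but Ctrl replicate 1 stood far above the other Ctrl samples. The log2 fold change was -0.74 (SE 0.22, adjusted p = 0.108) and -0.41 without Ctrl replicate 1 (adjusted p = 0.158).

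The other 3 members showed no difference beyond the spread between samples. Rlbp1 (chr7:79374870-79387048, minus strand) encodes CRALBP, the retinaldehyde carrier of the visual cycle, and was measured at 3316, 3324 and 3773 CPM in OIR and at 2565, 4319 and 4054 CPM in Ctrl. Dkk3 (chr7:112116017-112159057, minus strand), a secreted glycoprotein related to Wnt inhibitors, stood at 1284, 1401 and 1014 CPM in OIR and at 1867, 1129 and 1036 CPM in Ctrl. Car14 (chr3:95897768-95904691, minus strand), a carbonic anhydrase on the cell surface, stood at 1291, 1740 and 1093 CPM in OIR and at 1700.1, 1072 and 1009 CPM in Ctrl. Within Ctrl, replicate 1 was the lowest sample for Rlbp1 and the highest for Dkk3 and Car14. Their log2 fold changes were -0.14 (SE 0.22), -0.19 (SE 0.23) and 0.06 (SE 0.23), with adjusted p = 0.827, 0.771 and 0.946.

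The share of cells with a UMI was compared after each Müller-like cell had been thinned to 1000 UMIs, with the 24 to 101 cells a sample below that depth left out. Aqp4 was found in 27.5%, 22.3% and 16.5% of the cells of OIR replicates 1 to 3 and in 47.8%, 41.8% and 42.1% of those of Ctrl. Kcnj10 was found in 7.93%, 7.77% and 7.71% in OIR and in 14.4%, 12.8% and 15.7% in Ctrl. The groups did not overlap for either gene, and the same held for Glul, with means of 93.5% and 98.0%, and for Slc1a2, with 12.5% and 18.8%. Each of these 4 differences had p = 0.1 in a two-sided exact permutation test, the lowest that 3 samples against 3 can give. How many of all genes lack overlap in such shares was not counted, so the 4 have no background to be set against. Without thinning the mean shares were 51.3% and 73.8% for Aqp4 and 34.3% and 49.5% for Kcnj10, in cells whose median UMI count ran from 2217 to 8006.5 in OIR and from 5964.5 to 7956.5 in Ctrl. Rod-like cells, which should lack both channels, gave thinned shares of at most 0.868% for Aqp4 and 0.260% for Kcnj10, at median depths of 1403 to 3114 UMIs. For Slc1a2 the share in rod-like cells (23.2% to 28.3%) was above that in Müller-like cells of the same sample (11.5% to 16.4%) in 5 of 6 samples, and in Ctrl replicate 1 it was below (23.5% against 23.9%).

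Markers of other cells were measured in the same Müller-like sums. The rod list (8 of 8 genes detected in every sample) summed to 4823 to 6393 CPM in OIR and 5228 to 8194 CPM in Ctrl. The cone list (7 of 7) summed to 38.7 to 304 CPM in OIR and 22.6 to 898 CPM in Ctrl, with both replicate 1 samples highest. The pigment epithelium list (5 of 8, Tyrp1 at 0) was higher in OIR, 541 to 631 against 411 to 456 CPM. Most of this sum was Rdh10, which is also listed below among the retinoid genes of Müller homeostasis. Rdh10 stood at 507, 541 and 532 CPM in OIR and at 364, 352 and 376 CPM in Ctrl. The astrocyte list (5 of 6) summed to 194 to 245 CPM in OIR and 164 to 215 CPM in Ctrl. With the genes of the rod and cone lists left out of the fit, Aqp4 had a log2 fold change of -1.14 (adjusted p = 0.0151) and Kcnj10 of -0.73 (adjusted p = 0.0236). That refit removed no cells and left the counts of both channels as they were, so it cannot test RNA from rods or cones. The part of any of these lists in the results was not tested.

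Around the members, 59 further genes of Müller homeostasis were listed by role, and 46 of them passed the filter on low counts. Of these 46, 2 were called higher and 2 lower, and the median log2 fold change was -0.16. Over all genes tested in Müller-like sums, 1.59% were called higher and 1.16% lower, with a median of -0.01. The calls fell in the acid-base list (2 of 7 higher), the glutamate and glutamine list (1 of 11 lower) and the potassium and sodium pump list (1 of 9 lower). None of the 9 tested genes of the dystrophin complex and other water channels was called, nor any of 4 for inhibitory transmitters and taurine and of 6 for retinoids. In these 3 lists 2, 1 and 2 genes had an unadjusted p under 0.05, and DESeq2 called 0, 0 and 1. Of all 11628 genes, 1827 had such a p, and DESeq2 called 227 higher and 187 lower. Over the 46 listed genes DESeq2 called 4 higher and 2 lower, with 1 higher and 1 lower in the glutamate and glutamine list.

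Slc4a4, a sodium bicarbonate cotransporter, rose from 13.3, 10.9 and 13.5 CPM in Ctrl replicates 1 to 3 to 43.5, 33.4 and 50.2 CPM in OIR, a log2 fold change of 1.69 (SE 0.20, adjusted p = 0.00434). The call was lost in the low-UMI cluster alone (1.56, adjusted p = 0.134). Slc16a3, a carrier that exports lactate with protons, rose from 7.70, 7.80 and 3.51 CPM to 21.5, 13.4 and 17.8 CPM, a log2 fold change of 1.34 (SE 0.30, adjusted p = 0.0441). Its adjusted p was between 0.0975 and 0.162 without OIR replicate 1, OIR replicate 3, Ctrl replicate 2 or Ctrl replicate 3. In the low-UMI cluster alone the log2 fold change of Slc16a3 was 0.23 (adjusted p = 0.892), and in the high-UMI cluster alone it was 1.61 (adjusted p = 0.0452).

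Slc38a2, an amino acid carrier that takes up glutamine, fell from 146, 124 and 151 CPM in Ctrl to 74.9, 89.2 and 58.1 CPM in OIR, a log2 fold change of -0.99 (SE 0.17, adjusted p = 0.0157). The call was lost without OIR replicate 1, OIR replicate 3 or Ctrl replicate 3 (adjusted p = 0.0606, 0.0554 and 0.0620) and in the low-UMI cluster alone (-0.62, adjusted p = 0.319). Atp1b2, a beta subunit of the sodium-potassium pump, fell from 488, 446 and 455 CPM to 351, 298 and 293 CPM, a log2 fold change of -0.62 (SE 0.14, adjusted p = 0.0480). This call was lost when any single sample was left out (adjusted p between 0.0544 and 0.227, log2 fold change between -0.75 and -0.55). With replicates 2 and 3 alone it was made (-0.70, adjusted p = 0.0185), in samples whose sex-linked RNA also differs between the groups. With no upper limit on detected genes Slc38a2, Slc16a3 and Atp1b2 had adjusted p = 0.0787, 0.0931 and 0.105.

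**Figure D2:**
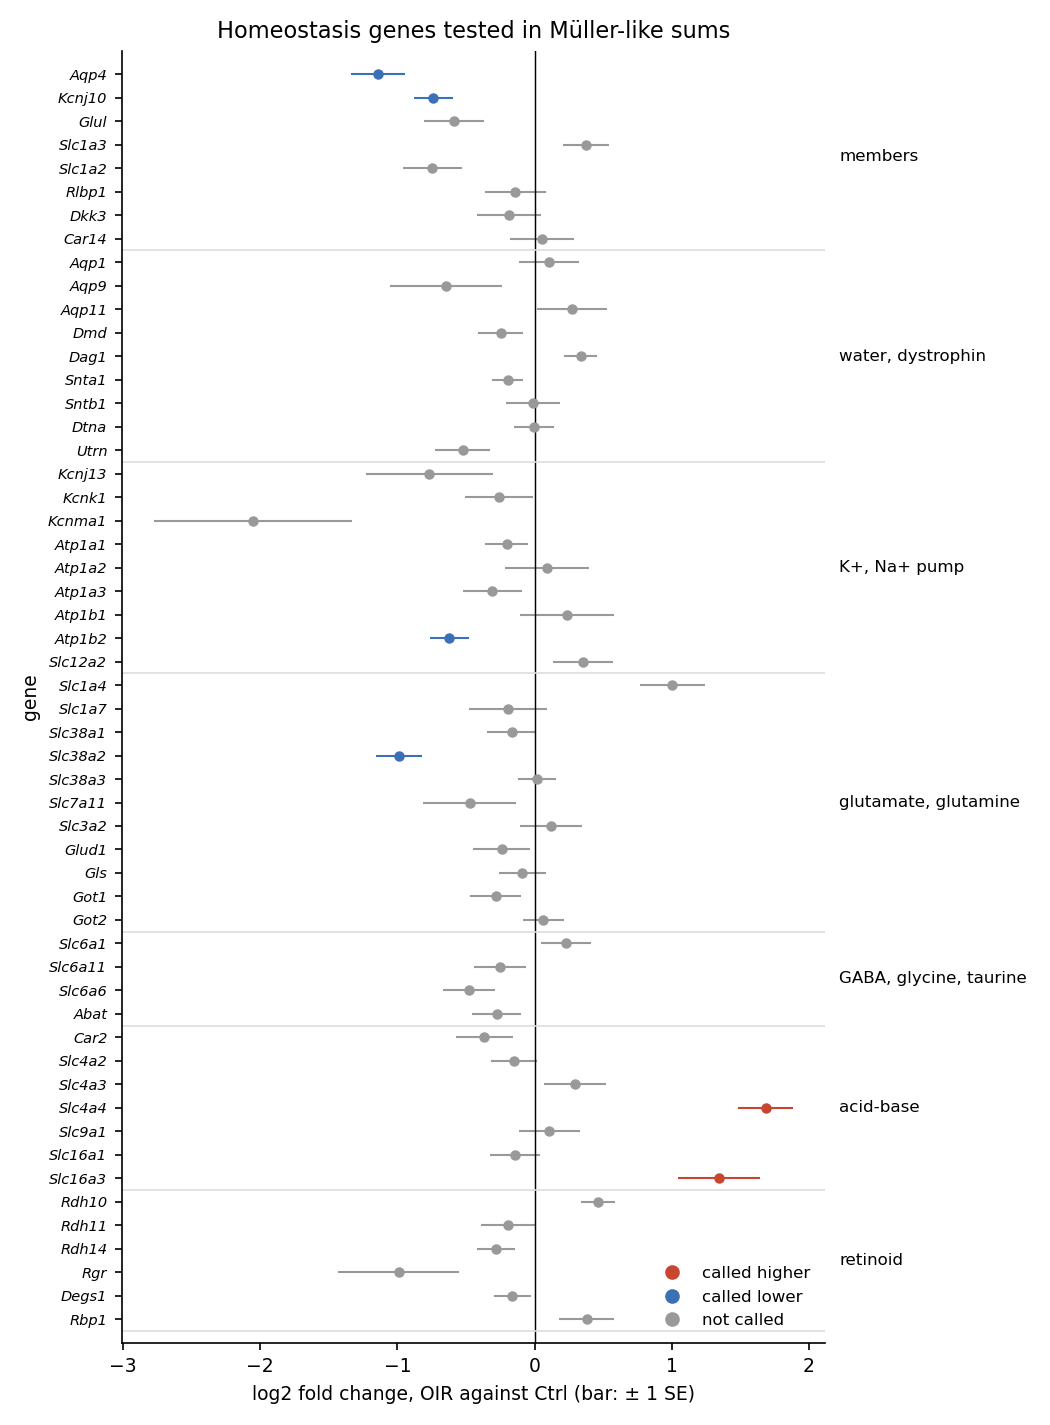
Log2 fold change of OIR against Ctrl in Müller-like sums (x axis, points, with bars of 1 SE) for the 8 members tested and the 46 tested genes of 6 other homeostasis lists. Called genes are coloured; Aqp4 (-1.14), Kcnj10 (-0.74), Slc38a2 (-0.99) and Atp1b2 (-0.62) lie below 0 and Slc4a4 (1.69) and Slc16a3 (1.34) above, while most genes lie near 0.

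Promoters are shown for 4 called genes, 2 lower and 2 higher, as the 250 bases before the start site in RefSeq (GRCm38.p6), 5′ to 3′ on the strand of the gene. Capitals mark ACGTG or GCGTG on either strand, the core that hypoxia-inducible factors bind. Overlapping matches were counted separately. Such a core was found in 38.6% of 32851 promoter windows. Kcnj10 (chr1:172340960-172341209, plus strand) and Slc38a2 (chr15:96699729-96699978, minus strand) held none, the first start of Slc4a4 (chr5:88887010-88887259, plus strand) held 1 and Slc16a3 (chr11:120948817-120949066, plus strand) held 2. Another start of Slc4a4 (chr5:89027716-89027965, plus strand) held none and is not shown. Which start of Slc4a4 these cells used was not tested. Of the 7 members whose window was used, 2 held a match, Car14 with 1 and Kcnj2 with 2.
Kcnj10: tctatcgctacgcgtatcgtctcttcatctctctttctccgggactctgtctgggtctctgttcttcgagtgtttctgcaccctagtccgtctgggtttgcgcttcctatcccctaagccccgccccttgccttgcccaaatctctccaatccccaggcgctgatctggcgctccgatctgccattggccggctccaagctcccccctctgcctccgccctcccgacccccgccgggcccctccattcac
Slc38a2: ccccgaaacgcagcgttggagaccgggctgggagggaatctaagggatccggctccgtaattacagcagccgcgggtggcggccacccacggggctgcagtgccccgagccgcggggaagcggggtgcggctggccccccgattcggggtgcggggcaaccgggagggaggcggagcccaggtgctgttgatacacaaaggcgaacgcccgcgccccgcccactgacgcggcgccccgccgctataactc
Slc4a4: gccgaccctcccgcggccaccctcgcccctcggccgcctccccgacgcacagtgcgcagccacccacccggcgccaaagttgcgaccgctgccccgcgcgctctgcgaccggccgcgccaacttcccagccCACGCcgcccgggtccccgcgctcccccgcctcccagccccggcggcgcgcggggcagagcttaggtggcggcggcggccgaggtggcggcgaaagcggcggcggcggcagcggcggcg
Slc16a3: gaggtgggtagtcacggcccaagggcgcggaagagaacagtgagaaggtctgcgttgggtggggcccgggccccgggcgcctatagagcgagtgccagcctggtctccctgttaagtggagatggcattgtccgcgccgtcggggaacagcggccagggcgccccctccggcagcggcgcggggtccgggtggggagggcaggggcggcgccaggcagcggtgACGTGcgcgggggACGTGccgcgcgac

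Across cell types, 7 of the 9 members had most of their UMIs in Müller-like cells, and Slc1a2 and Kcnj2 did not. Müller-like cells supplied 92.0% to 95.4% of all UMIs of Aqp4, Kcnj10, Glul, Slc1a3, Rlbp1, Dkk3 and Car14, but 9.20% of those of Slc1a2 and none of those of Kcnj2. These levels describe the cells and were not tested, since the cell types come from the expression of the same cells.

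Aqp4 averaged 553 CPM in Müller-like sums (277 to 900.4 over the 6 samples), 47.9 CPM in astrocyte-like and 34.8 CPM in rod bipolar-like sums, where the latter ranges overlapped, and at most 5.73 CPM elsewhere. Kcnj10 averaged 130 CPM in Müller-like sums (88.3 to 172) and 91.6 CPM in astrocyte-like sums (0 to 331), which overlapped. The astrocyte-like mean leaned on Ctrl replicates 2 and 3 (173 and 331 CPM), with 6 UMIs each in 2 cells and 1 cell. The other astrocyte-like sums stood at 0 to 23.0 CPM. Kcnj10 stayed at or below 4.96 CPM in the other types. Glul averaged 8229 CPM in Müller-like sums (5719 to 10025), 2984 CPM in astrocyte-like (1631 to 3988) and 746 CPM in pigment epithelium-like sums (537 to 962), with no overlap between these neighbours. Microglia-like sums followed at 550.1 CPM (375 to 660.1), overlapping the pigment epithelium. Slc1a3 averaged 1182 CPM in Müller-like and 824 CPM in astrocyte-like sums (402 to 1490), which overlapped, and no more than 45.6 CPM in the remaining types.

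The pigment epithelium shared 2 members with Müller glia. Car14 averaged 1318 CPM in Müller-like sums (1009 to 1740) and 1200.5 CPM in pigment epithelium-like sums (811 to 1501), which overlapped. Rlbp1 averaged 3558 CPM (2565 to 4319) and 1739 CPM (1166 to 2510), which did not. Dkk3 averaged 1288 CPM in Müller-like sums, 821 CPM in astrocyte-like, 202 CPM in amacrine-like and 194 CPM in pigment epithelium-like sums. Its Müller-like range (1014 to 1867) overlapped the astrocyte-like (221 to 1366) and its amacrine-like range (117 to 289) the pigment epithelium-like (122 to 328).

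**Figure D3:**
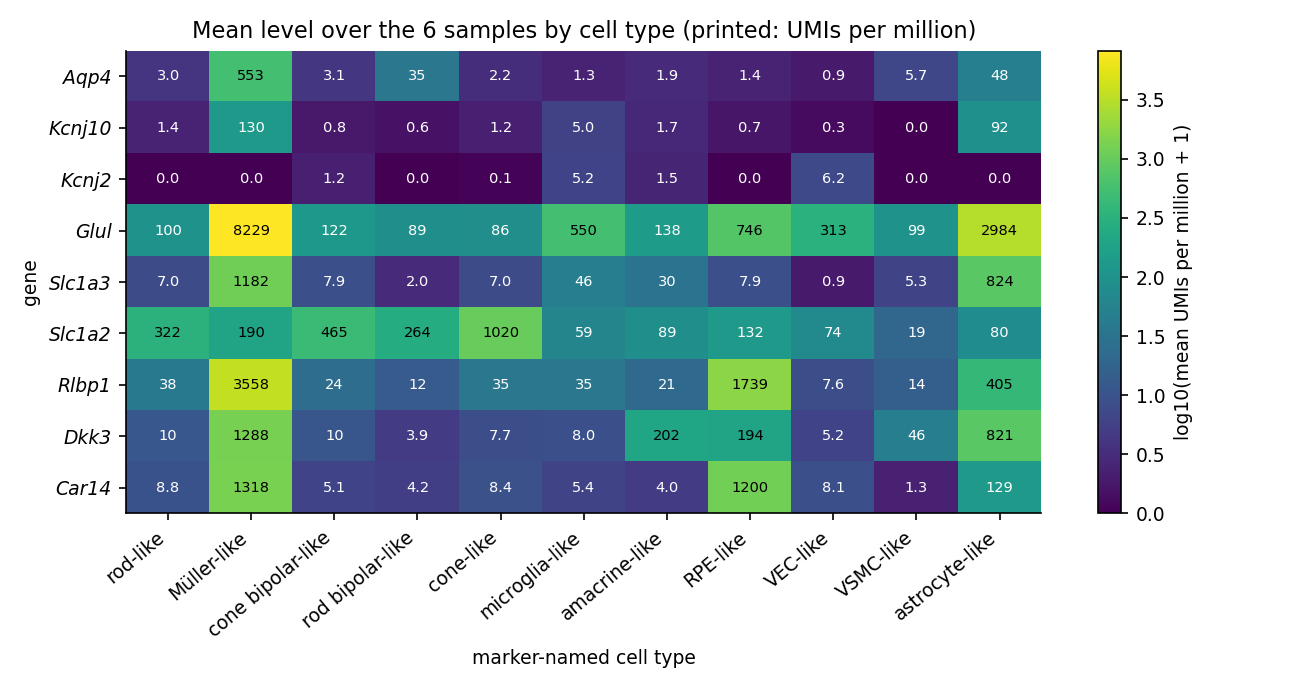
Mean CPM over the 6 samples (printed in each cell; colour on a log10 scale of the mean plus 1) for the 9 members (rows) in 11 marker-named cell types (columns; RPE, pigment epithelium; VEC, vascular endothelial; VSMC, vascular smooth muscle). Most members peak in Müller-like cells, Rlbp1 (1739) and Car14 (1200) are also high in pigment epithelium-like cells, and Slc1a2 is highest in cone-like cells (1020).

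Only 56 astrocyte-like cells were found, with 1 to 22 in a sample, so that no test was made. Aqp4 stood at 108 CPM in OIR replicate 1 (95% Poisson interval 71.5 to 158, 17 cells) and at 39.4 CPM in Ctrl replicate 1 (20.4 to 68.9, 22 cells). These intervals cover counting error only. OIR replicates 2 and 3 stood at 53.3 and 86.3 CPM on 11 and 3 cells. Ctrl replicates 2 and 3 had 0 Aqp4 UMIs on 2 and 1 cells, with upper bounds of 107 and 204 CPM.

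Slc1a2 was highest in photoreceptor and bipolar cells. It averaged 1020 ± 101 CPM in cone-like sums (SD over 6 samples), 465 ± 58.0 in cone bipolar-like, 322 ± 28.6 in rod-like, 264 ± 24.9 in rod bipolar-like and 190 ± 71.0 in Müller-like sums. Cone-like, cone bipolar-like and rod-like ranges were apart from each other, whereas rod-like, rod bipolar-like and Müller-like neighbours overlapped. In cone-like sums it was measured at 961, 1055 and 1115 CPM in OIR and at 1067, 1079 and 842 CPM in Ctrl, a log2 fold change of 0.00086 (SE 0.14, adjusted p = 1.00). In cone bipolar-like sums it stood at 442, 563 and 469 CPM in OIR and at 481, 449 and 386 CPM in Ctrl, a log2 fold change of 0.10 (SE 0.14, adjusted p = 0.842). Neither type thus showed the lower OIR values of Müller-like sums. The log2 effect of OIR was larger by 0.83 in cone bipolar-like (SE 0.18, adjusted p = 0.0450) and by 0.74 in cone-like (SE 0.19, adjusted p = 0.0363) than in Müller-like sums. Of all genes, 0.782% and 1.51% were called for these 2 differences. In rod bipolar-like sums the difference of 0.65 (SE 0.19) did not pass (adjusted p = 0.116), nor did those in rod-like, microglia-like, amacrine-like and pigment epithelium-like sums, where 1.84%, 0.429%, 0.237% and 0.0598% of genes were called. These differences were of like direction, at 0.73, 0.73, 1.37 and 0.59. With no filter on low counts those in rod-like and rod bipolar-like sums passed (adjusted p = 0.00135 and 0.0466).

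**Figure D4:**
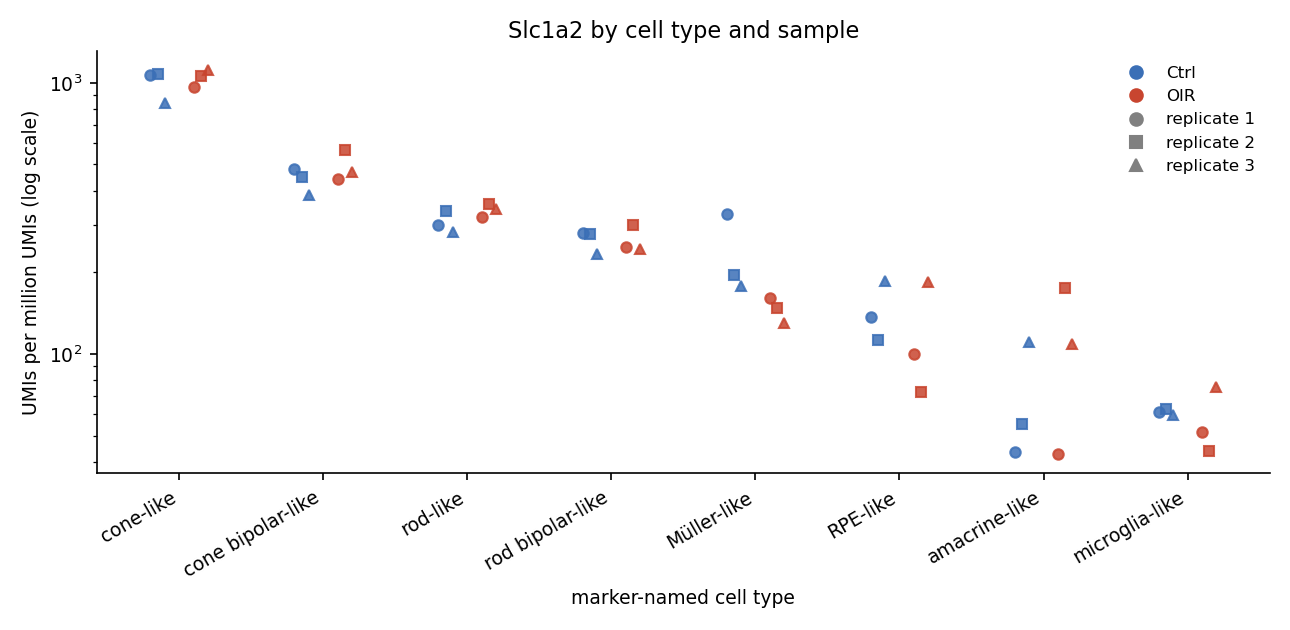
Slc1a2 in CPM (y axis, log scale) by marker-named cell type (x axis) for each of 3 Ctrl and 3 OIR samples (points, coloured by group and shaped by replicate). Levels run down from cone-like (mean 1020) to microglia-like cells (mean 59.0), and the OIR samples lie below the Ctrl samples in Müller-like cells but not in cone-like or cone bipolar-like cells.

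In the 7 other cell types tested, 35 tests of members gave 1 call higher and none lower. DESeq2 gave 2 calls higher, 1 in rod-like and 1 in rod bipolar-like sums, and none lower. It called 352 genes higher and 318 lower of 11581 in rod-like sums, and 132 and 121 of 9332 in rod bipolar-like sums. Of the 35 edgeR tests, 6 had an unadjusted p under 0.05. Of all genes, 2141 of 11581 had such a p in rod-like and 1348 of 9332 in rod bipolar-like sums. The counts were 1230 of 10261 in cone bipolar-like and 1062 of 9435 in cone-like sums. In microglia-like, amacrine-like and pigment epithelium-like sums they were 479 of 5039, 197 of 3959 and 95 of 1765. In either direction, 2.59% of genes were called in rod-like, 0.926% in cone bipolar-like, 1.3% in cone-like, 0.456% in microglia-like, 0% in amacrine-like and 0.0567% in pigment epithelium-like sums. The 1 call was Aqp4 in rod bipolar-like cells, the bipolar cells that pass rod signals on. There the direction was opposite to that in Müller-like cells. Aqp4 stood at 43.0, 57.6 and 72.6 CPM in OIR replicates 1 to 3, on 205, 100 and 107 UMIs. In Ctrl it stood at 8.63, 14.8 and 12.2 CPM, on 47, 19 and 12 UMIs. The lowest OIR sample was thus well above the highest Ctrl sample. The log2 fold change was 2.33 (SE 0.25, adjusted p = 0.000179), and in this cell type 1.29% of 9332 genes were called higher.

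The call held in each of 19 alternatives, including those that left out 1 sample, removed cells with high doublet scores or used other clusterings, with log2 fold changes between 2.02 and 2.62. The difference of the OIR effect between rod bipolar-like and Müller-like sums was 3.53 on the log2 scale (SE 0.35, adjusted p = 6.4e-05), where 1.45% of genes were called.

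An Aqp4 UMI was found in 255 of 916 rod bipolar-like cells in OIR and in 66 of 1139 in Ctrl. By sample the shares were 24.2%, 29.7% and 38.9% in OIR and 5.26%, 7.32% and 6.96% in Ctrl. No cell held more than 8 Aqp4 UMIs. At 1000 UMIs per cell the shares were 4.59%, 3.98% and 9.09% in OIR and 0.861% and 1.22% in Ctrl replicates 1 and 2. In Ctrl replicate 3, 0 of 156 cells held one, which allows a share of up to 1.92%. Cone bipolar-like cells, handled in the same suspension, gave at most 0.595% and rod-like cells at most 0.868%.

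Glul, the member with the most UMIs in Müller-like sums, was counted beside Aqp4 in several cell types. Rod bipolar-like sums held 45.5, 50.8 and 104 Aqp4 UMIs per 100 Glul UMIs in OIR and 8.50, 15.3 and 21.4 in Ctrl. Müller-like sums of the same samples held 7.27, 4.35 and 4.54 in OIR and 9.72, 6.75 and 6.94 in Ctrl. Pooled over samples, rod-like, cone-like and cone bipolar-like sums held 2.86, 2.63 and 2.47. In every OIR sample, and in Ctrl replicates 2 and 3, the rod bipolar-like ratio was above all of these Müller-like and pooled ratios. The source of the Aqp4 UMIs in rod bipolar-like cells was not tested. Of the 255 OIR cells with an Aqp4 UMI, 123 had no Glul UMI, and of the 66 such Ctrl cells 37 had none. Among all rod bipolar-like cells, Glul was found in 49.3%, 57.3% and 42.7% in OIR replicates 1 to 3. In Ctrl it was found in 41.1%, 40.9% and 29.1%. Glul itself was at 94.7, 114 and 69.9 CPM in rod bipolar-like sums of OIR and at 102, 96.4 and 56.9 CPM in Ctrl (log2 fold change 0.05, SE 0.21, adjusted p = 0.953).

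Of the Müller marker list, 8 of 11 genes were detected in every rod bipolar-like sum, and the list summed to 279 to 395 CPM in OIR and 184 to 351 CPM in Ctrl. The astrocyte list (1 of 6 in every sum, Pax2 at 0) summed to 2.31 to 4.83 CPM in OIR and 2.03 to 3.89 CPM in Ctrl. The cone bipolar list, which shares genes with the rod bipolar list, was higher in OIR, at 5726 to 6916 against 4257 to 4638 CPM. The rod bipolar list itself (6 of 6) stood at 10728 to 11865 CPM in OIR and 9674 to 11175 CPM in Ctrl. The part of the cone bipolar list in the Aqp4 result was not tested.

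**Figure D5:**
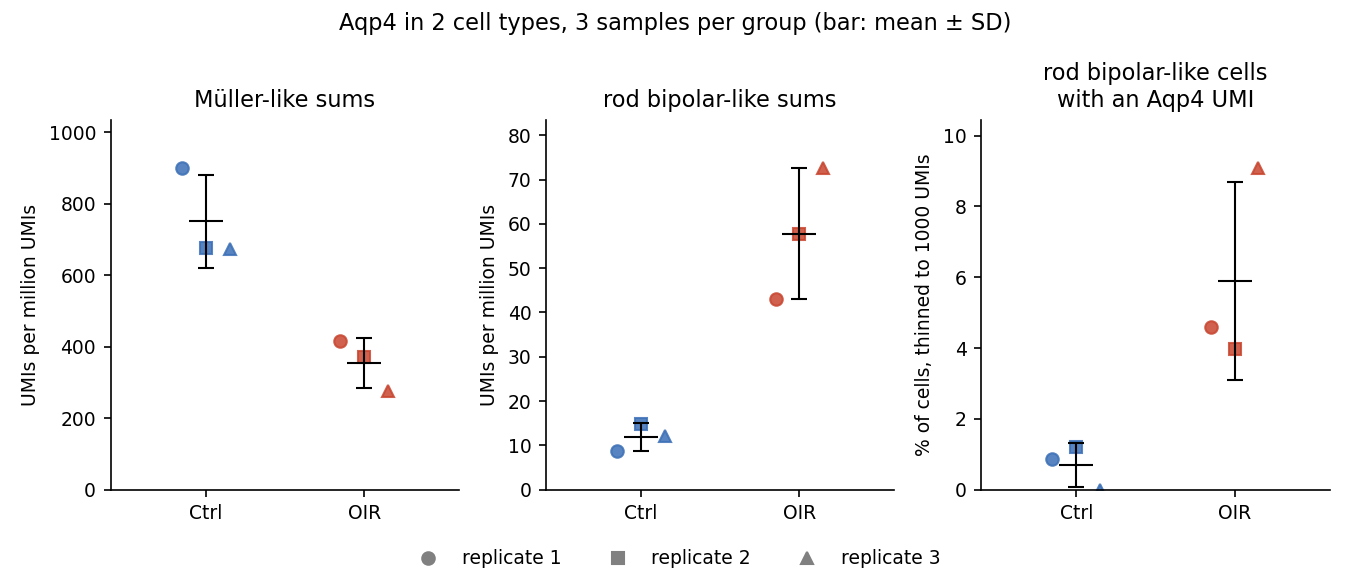
Aqp4 in CPM in Müller-like sums (left) and rod bipolar-like sums (middle), and the percentage of rod bipolar-like cells with an Aqp4 UMI after thinning to 1000 UMIs (right), for 3 Ctrl and 3 OIR samples with mean and SD. The OIR samples lie below Ctrl in Müller-like sums (277 to 416 against 675 to 900.4) and above Ctrl in rod bipolar-like sums (43.0 to 72.6 against 8.63 to 14.8), on axes of different scale.

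Among the other tests, Slc1a3 in rod-like cells came closest. It stood at 10.6, 9.04 and 10.2 CPM in OIR and at 2.99, 5.26 and 4.05 CPM in Ctrl, with no overlap, and had a log2 fold change of 1.08 (SE 0.24, adjusted p = 0.0528). With the replicate number as a block the adjusted p was 0.0226, but the labels do not say that same-numbered samples are pairs. That block also called 638 genes higher and 601 lower of 11581 in rod-like sums, against 182 and 118 without it. Müller-like sums held the same gene at 857 to 1558 CPM. In cone bipolar-like cells Glul stood at 99.5, 119 and 95.5 CPM in OIR and at 170, 141 and 108 CPM in Ctrl. The ranges overlapped, and the log2 fold change of -0.50 (SE 0.17) had an adjusted p of 0.225, or of 0.0346 with the same block. In cone bipolar-like sums the block called 254 genes higher and 257 lower of 10261, against 59 and 36 without it.

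The genes whose levels most resembled each member were sought over the 48 sums of 8 cell types and 6 samples among 9726 genes, by Pearson correlation of log2(CPM + 1). These values describe the same cells from shared libraries and carry no test. Aqp4 resembled Sox2 (r = 0.881) and Dio2 (0.862), and Kcnj10 resembled Mlc1 (0.913) and Qrfpr (0.907). The best matches were Prdx6 (0.938) and Dbi (0.927) for Glul, and Crym (0.886) and Carhsp1 (0.871) for Slc1a3. Rlbp1 (Sntb1, 0.960; Rrh, 0.948) and Car14 (Pdpn, 0.959; Rrh, 0.953) had Rrh in common. Dkk3 went with Antxr1 (0.937) and Flrt2 (0.921). Slc1a2 resembled Glo1 (0.887) and Atp1b2 (0.860), the pump subunit lower in OIR, and Kcnj2 resembled Aim2 (0.728) and Nuak1 (0.712). Kcnj2 was near the floor, at 0 in all Müller-like, rod bipolar-like and pigment epithelium-like sums. Endothelial-like cells, with 28 of its 77 UMIs, were not among the 8 types. Among the members themselves, Rlbp1 and Car14 were most alike (r = 0.942), and Slc1a2 had correlations between -0.39 and 0.09 with the other 8.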

How the data were processed

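The deposited values are raw UMI counts, made by the authors with Cell Ranger (the matrix headers give version 3.1.0; the labels give build mm10) from 10x 3′ libraries. The study's methods name a human reference, but the files list mouse genes. Strand use in counting is not given in the sources used here, and Aqp4, Glul, Slc1a2 and Car14 have annotated neighbours on the opposite strand.

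Cells with 500 to 5000 genes and at most 20% mitochondrial UMIs were kept, as in the study. Seurat 5.3.0 integrated the groups (2000 variable genes without the 9 members, 15 components, 20 neighbours, Louvain resolution 0.5). Clusters were named "-like" from marker lists, and 381 cells, mostly with lens crystallin RNA, stayed unnamed. Doublets were not removed: Scrublet's own threshold marked cells in only 2 of 6 samples, so removal of the highest scores at 0.8% per 1000 barcodes was an alternative. Counts were summed per sample and type and tested where every sample held 10 cells or more of a type, by edgeR 4.0.16 (TMM, filterByExpr, quasi-likelihood, Benjamini-Hochberg over all genes) in R 4.3.3, and shares by exact permutation (SciPy 1.17.1). The difference of the OIR effect between 2 types was tested as an interaction term over both types' sums, which share libraries. The SE given with an edgeR effect is its size divided by the square root of the F statistic of its test.

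The members, lists and markers were chosen with earlier results of these data known. Named are the members, listed genes called in Müller-like sums, and the 2 genes most correlated with each member. Alternatives were DESeq2 1.42.0, no filter or TMM, each sample left out, the replicate block, a term for Xist RNA, replicates 2 and 3 alone, other clusterings (among them Leiden in scanpy 1.11.5) and other cell filters; single Müller clusters, removal of rod and cone markers, and most alternatives for rod bipolar-like sums were added after seeing the data. Deviations of same-numbered samples from their group means correlated over genes by 0.483, 0.251 and 0.344 in rod-like and by 0.344, 0.139 and 0.193 in cone bipolar-like sums. On simulated Müller-like sums the test recovered 64.5% of genes changed 2-fold and 94.0% of those changed 4-fold, and 12.8% and 6.00% of its calls were false. Gene positions are from GENCODE release M21 on GRCm38 and promoters from RefSeq. Windows on chromosome 18, where Aqp4 lies, were left out of the genes shown, and Dkk3 and Atp1b2 had no window.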

Additional observations from a re-analysis of the deposited data

Results flagged for a closer look

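3 differences of the OIR effect between cell types passed the test of the difference itself, out of 56 tests of members. Over all genes, between 0.0598% (pigment epithelium-like) and 1.84% (rod-like) were called for such a difference. For Aqp4 the log2 effect in rod bipolar-like sums was 3.53 above that in Müller-like sums (SE 0.35, adjusted p = 6.4e-05), higher in OIR in the first (8.63 to 14.8 CPM in Ctrl, 43.0 to 72.6 in OIR) and lower in the second. For Slc1a2 the effect was 0.83 above the Müller-like effect in cone bipolar-like sums (SE 0.18, adjusted p = 0.0450) and 0.74 above it in cone-like sums (SE 0.19, adjusted p = 0.0363). In both cases Ctrl replicate 1 had the highest Slc1a2 level of the Müller-like sums, 327 CPM, and the differences were not fitted without it. Groups of 3 samples are too small for the search for single samples far from the others.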

How the results depend on the processing

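Of the member results in Müller-like sums, the directions of Aqp4, Kcnj10, Glul, Slc1a2 and Slc1a3 held in each of 21 alternatives. The 2 members called lower became 4 with DESeq2 (Glul, adjusted p = 0.0168, and Slc1a2, 0.0259, added), 0 with no upper limit on detected genes, 1 in the low-UMI cluster alone and 0 to 2 with 1 sample left out; the count of members called higher was 0 throughout. Slc1a2 was also called with no filter on low counts (-0.73, adjusted p = 0.0149). With a term for Xist RNA its log2 fold change was -1.21, an effect against Ctrl replicate 1 alone, its highest Ctrl sample. Over all genes, the 185 called higher became 385 with no filter, 118 when clustered without integration, 75 with no upper limit on genes, 92 in the low-UMI cluster alone and 55 to 213 with 1 sample left out. The 135 called lower became 311 with no filter, 205 in replicates 2 and 3 alone, 40 with no upper limit, 89 and 67 in the high-UMI and low-UMI clusters alone and 24 to 224 with 1 sample left out. Member calls in the other types went from 1 to 2 (DESeq2), 3 (no filter) and 1 to 2 (1 sample left out) higher, and the 3 called differences between types became 8 with no filter. Calls over all genes rose too. In rod-like sums 182 higher and 118 lower of 11581 became 352 and 318 with DESeq2. With no filter they became 353 and 245 of 19027. Called differences from Müller-like sums went from 246 of 13405 genes to 630 of 20494 in rod-like sums with no filter. In cone-like sums they went from 182 of 12077 to 361 of 19752. The cause was not tested.

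Car14, Rlbp1 and Dkk3, which had no call, changed sign. Car14 (0.06) ran from -0.12 to 0.33 with 1 sample left out and was -0.36 with the Xist term. Rlbp1 (-0.14) ran from -0.34 to 0.0099 with 1 sample left out, was 0.38 with the Xist term and 0.11 in the low-UMI cluster alone. Dkk3 (-0.19) ran from -0.34 to 0.12 with 1 sample left out and was 0.062 in replicates 2 and 3 alone. The share of Müller-like cells with a Slc1a3 UMI was 4.52 percentage points higher in OIR with thinning and differed by -4.90 without it (exact permutation p = 0.3 and 0.4).

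With the replicate block, 3 members were called lower in Müller-like sums, Slc1a2 among them (-0.70, adjusted p = 0.0290), and the other types gave 3 member calls higher and 1 lower, Rlbp1 in rod bipolar-like sums (0.98, adjusted p = 0.0352) among them. Same-numbered Müller-like samples deviated together with correlations of 0.226, -0.0469 and 0.232, and 4 of 6 samples correlated best with their own number. Whether same-numbered samples are pairs is not given in the labels and was not settled by these values. The main fits used no block. Replicate 1 alone, with no test, gave log2 ratios of OIR to Ctrl of -1.11 for Aqp4 and -0.55 for Kcnj10.

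Slc38a2, Slc16a3 and Atp1b2 kept their calls in 16, 12 and 9 of 21 alternatives and their direction in 21. The 56 astrocyte-like and 190 endothelial-like cells were too few for a test, and a gene at 0 such as Kcnj2 is limited by depth.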
